A study of Homo sapiens with 18 samples.

Results

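The endoplasmic reticulum folding and degradation genes were followed in RNA sequencing of the human mantle cell lymphoma lines JEKO1 and MAVER. They are 35 genes listed by name and role. All 35 are among the 25369 genes listed for each line. By role they are 6 chaperones and chaperone partners, 2 lectin chaperones, 7 disulfide enzymes, 4 stress sensors with the transcription factor XBP1, 10 genes of endoplasmic reticulum-associated degradation (ERAD) and 5 of protein translocation. There were 6 groups of 3 libraries, lettered A, B and C, all collected at 6 h: DMSO and IB in JEKO1, and DMSO, IB, KPT and PU in MAVER. DMSO is the solvent. IB was taken to be the BTK inhibitor ibrutinib (0.4 µM) and KPT the XPO1 inhibitor selinexor (1.5 µM), the inhibitors that the series names. Neither the meaning of PU nor its dose is stated, and it is written here as labelled. Both are established cell lines. The replicates are described as biological without saying how cultures were separated. The p-values therefore measure only how far these libraries spread, which may be technical.

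Proteins bound for the cell surface or for secretion, immunoglobulins of B cells among them, enter the endoplasmic reticulum through the SEC61 channel and are folded there by chaperones and disulfide enzymes. Proteins that fail to fold are sent back to the cytosol and degraded by the proteasome, which is ERAD. When unfolded proteins build up, the sensors IRE1 (ERN1), PERK (EIF2AK3) and ATF6 start the unfolded protein response: IRE1 splices the XBP1 transcript, PERK slows translation, and the released part of ATF6, together with spliced XBP1, turns on chaperone and ERAD genes. XBP1 is also needed for the secretory expansion of plasma cells. The gene counts used here do not separate spliced from unspliced XBP1.

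Values are normalized counts, which the authors scaled with 1 factor for each library and separately for each line, so levels of the 2 lines were not tested against each other. Recovered depth was 5374226 to 17040599 reads per library and lowest with KPT. KPT replicates A and C and JEKO1 DMSO replicate C were rich in the ribosomal RNA precursor RNA45S5 (53819 to 66933 normalized counts, against 7919 to 32274 in the other 15 libraries). The B cell genes MS4A1, CD79A, CD79B, PAX5 and CD22 and the mantle cell lymphoma genes CCND1 and SOX11 were expressed in both lines. As RPM, recovered reads scaled to the library's total, CD5 with DMSO stood at 1.98 to 2.91 in JEKO1 and 28.8 to 32.4 in MAVER. XPO1, the target of selinexor, rose with KPT (1.10 ± 0.04, adjusted p = 8.17e-24). EGR1, an early target of B cell receptor signals, went opposite ways with IB: 15.5, 21.2 and 16.2 with DMSO against 195, 227 and 211 with IB in JEKO1, and 43.3, 25.7 and 30.5 against 0.963, 0 and 0 in MAVER. Directions for JEKO1 therefore hold for the libraries as labelled.

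The promoters of the members show which of them carry the recognition sequences of the unfolded protein response. Whether these sequences bear on the direction of a member was not tested. RefSeq promoter windows (build GRCh38.p14, 250 bases before to 50 after the annotated start) were matched for 32 of the 35 members, all but PDIA3, DERL1 and DERL3. The build differs from the hg19 of the deposited data, and the coordinates belong to the windows only. ERSE, the element that NF-Y binds at its CCAAT end and ATF6 at its CCACG end (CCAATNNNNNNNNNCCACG, either strand), was present in 7 of 32 member windows (21.9%) and in 27 of 35116 windows of all genes (0.0769%). The members were HSPA5, HSP90B1, CRELD2, CALR, CANX, ERO1LB and XBP1. With up to 1 mismatch in the CCACG end the shares were 34.4% and 1.04%. ERSE-II (ATTGGNCCACG) was present in 3 member windows, those of HERPUD1, SDF2L1 and HYOU1 (9.38%, against 0.0541% of all). The XBP1 site UPRE (TGACGTGG) was present in 1, that of HYOU1, where it overlaps an ERSE-II match (3.12%, against 0.729% of all). Of 83 windows matched for other endoplasmic reticulum genes, listed below, 1 held ERSE (1.2%), 0 held ERSE-II and 8 held UPRE (9.64%). The window matched for RPN1 among these was that of PSMD2. Many members were listed by roles whose genes this response turns on, so their excess over all genes is not an independent result. A match is a description of the sequence and not a measured binding site. Capitals mark the fixed letters of the motif in the 8 stretches shown, which all end before the annotated start. On the opposite strand ERSE reads as CGTGG, spacer, ATTGG.
HSPA5, chr9:125241371-125241429, minus strand, ERSE: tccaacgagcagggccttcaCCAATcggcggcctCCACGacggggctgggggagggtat
CRELD2, chr22:49918534-49918592, plus strand, ERSE: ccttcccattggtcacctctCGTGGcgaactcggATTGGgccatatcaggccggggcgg
CALR, chr19:12938364-12938422, plus strand, ERSE: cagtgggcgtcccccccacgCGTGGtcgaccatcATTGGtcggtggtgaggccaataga
CANX, chr5:179698758-179698816, plus strand, ERSE: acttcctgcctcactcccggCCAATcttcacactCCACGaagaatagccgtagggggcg
ERO1LB, chr1:236282163-236282208, minus strand, ERSE: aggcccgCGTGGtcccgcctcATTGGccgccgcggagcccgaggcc
XBP1, chr22:28800583-28800641, minus strand, ERSE: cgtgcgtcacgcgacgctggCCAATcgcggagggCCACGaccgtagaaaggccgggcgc
HERPUD1, chr16:56932005-56932055, plus strand, ERSE-II: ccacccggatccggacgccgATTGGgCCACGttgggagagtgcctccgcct
SDF2L1, chr22:21642094-21642144, plus strand, ERSE-II: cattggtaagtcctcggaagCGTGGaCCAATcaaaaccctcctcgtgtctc

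The members moved most with PU in MAVER, where all 6 chaperones, both lectin chaperones and 6 of 7 disulfide enzymes fell and the sensor ERN1 rose. A gene is said to rise or fall, and is called, where the Benjamini-Hochberg adjusted p of limma over all genes tested was under 0.05. Differences are on the log2(normalized count + 1) scale with their SE, and adjusted p values are from limma unless another tool is named. With PU 20 of 35 members fell, where 27.5% of all genes tested fell, and 8 rose (27.6% of all genes). With KPT 15 of 35 fell (28.5% of all genes) and 6 rose (27.3%). The count that rose with KPT is below the share of all genes. With IB in MAVER 16 of 35 fell (9.65% of all genes) and 3 rose (10.1%), the latter a share near the background. In JEKO1, where ATF6B did not pass the filter of a mean of 10 normalized counts, 11 of 34 rose in the libraries labelled IB (21.9% of all genes) and 8 fell (20.2%). The median difference of the members was -0.23 with PU, -0.12 with KPT, -0.11 with IB in MAVER and 0.06 with IB in JEKO1. The medians of all genes tested were 0.01, 0.00, -0.01 and -0.01. The 3 MAVER comparisons share their DMSO libraries. In bulk RNA, fewer cells that express a gene and less of its RNA per cell cannot be told apart.

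**Figure D1:**
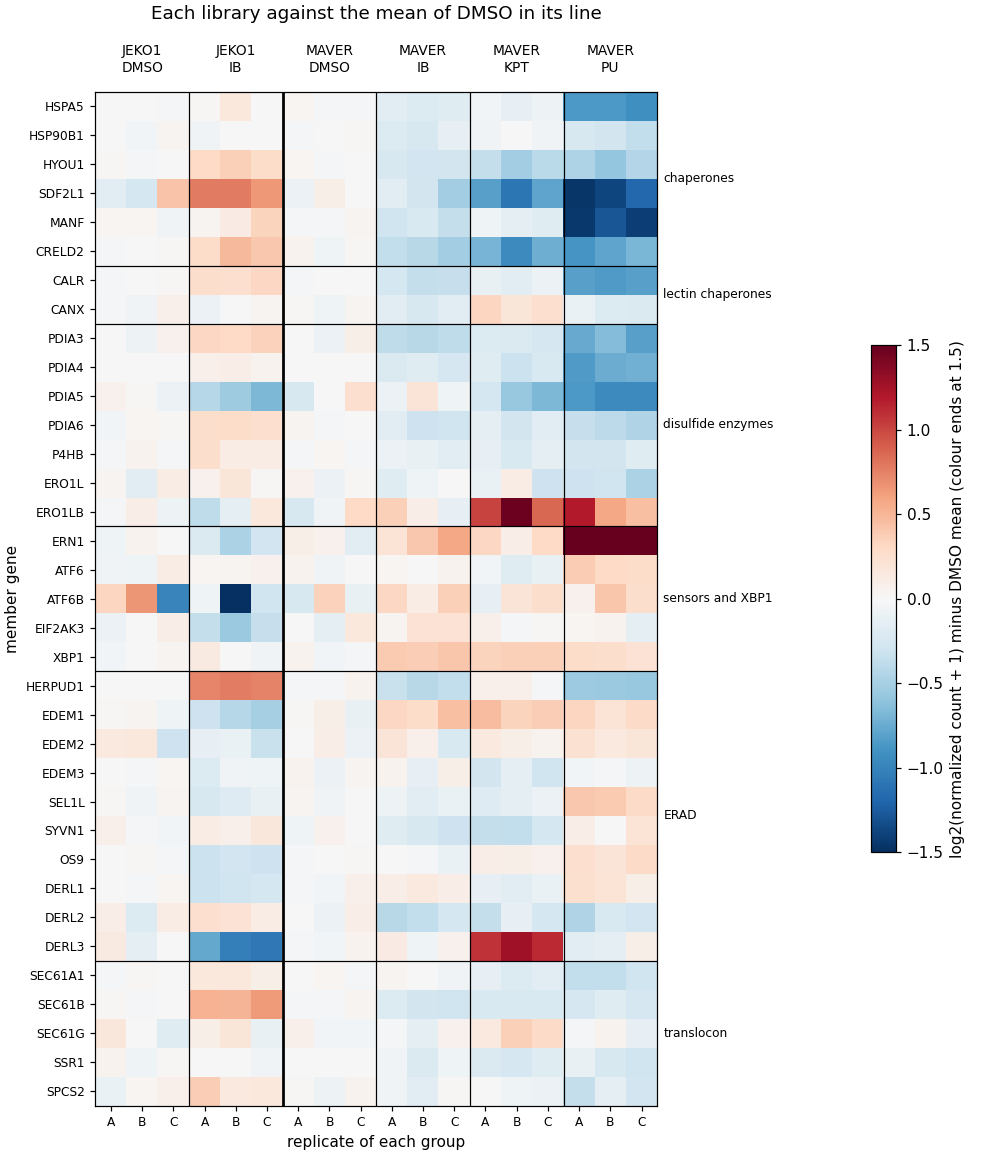
Colour gives log2(normalized count + 1) of each library (columns, grouped by line and treatment) minus the mean of the 3 DMSO libraries of its line, for the 35 members (rows, by role). The 6 chaperones are blue in all 3 PU libraries, ERN1 is darkest red in the 3 PU libraries, DERL3 is red with KPT, and HERPUD1 is red with IB in JEKO1 and blue with IB in MAVER. ATF6B in JEKO1 rests on few reads.

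Chaperones came first. HSPA5 (BiP), the main HSP70 chaperone of the endoplasmic reticulum and the brake on its sensors, stood at 6415, 6215 and 6192 normalized counts in MAVER replicates A, B and C with DMSO and at 3456, 3446 and 3315 with PU. All PU libraries were below all others of the line, and the difference was -0.88 ± 0.04, adjusted p = 4.08e-22. With IB HSPA5 stood at 5565, 5435 and 5518 (-0.19 ± 0.04, adjusted p = 0.000269), and with KPT at 6090.1, 5774 and 5948 (-0.08 ± 0.04, adjusted p = 0.0776). It thus fell with IB and PU and was not called with KPT. HSPA5 with KPT was called on scaling to equal totals (0.0249), given as adjusted p. In JEKO1 the libraries overlapped, at 5271, 5307 and 5216 with DMSO and 5344, 5878 and 5281 with IB (0.06 ± 0.04, adjusted p = 0.267).

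HSP90B1 (GRP94), the HSP90 of this compartment, moved less than HSPA5 with PU. It stood at 7218, 7282 and 7364 with DMSO and 6150.3, 6031 and 5643 with PU (-0.30 ± 0.04, adjusted p = 4.54e-08), without overlap. With IB it was 6335, 6183 and 6705 (-0.19 ± 0.04, adjusted p = 0.000491). With KPT it was 7010.0, 7283 and 7032, and these libraries overlapped those with DMSO (-0.04 ± 0.04, adjusted p = 0.46). In JEKO1 it stood at 3804, 3684 and 3907 with DMSO and 3652, 3797 and 3778 with IB (-0.02 ± 0.04, adjusted p = 0.711), again overlapping.

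MANF and SDF2L1 had the largest falls with PU. MANF, a secreted factor that binds HSPA5, stood at 636, 640.1 and 667 with DMSO and 236, 265 and 242 with PU (-1.39 ± 0.07, adjusted p = 1.61e-20), and the groups did not overlap. With IB it was 528, 552 and 504 (-0.29 ± 0.07, adjusted p = 0.00116) and with KPT 619, 587 and 571 (-0.13 ± 0.07, adjusted p = 0.102). SDF2L1, a partner of HSPA5 and its co-chaperones, stood at 378, 428 and 404 with DMSO, 228, 189 and 232 with KPT and 146, 155 and 178 with PU. Its differences were -1.34 ± 0.10, adjusted p = 6.41e-15 with PU and -0.90 ± 0.10, adjusted p = 3.55e-10 with KPT, with no overlap in either. With IB it was 358, 332 and 280.4 (-0.32 ± 0.10, adjusted p = 0.0155). The SDF2L1 call with IB in MAVER ended on fitting no variance trend (0.0843), leaving out MAVER IB replicate C (0.147), leaving out MAVER DMSO replicate B (0.0806) or leaving out MAVER DMSO replicate C (0.0526), given as adjusted p. In JEKO1 SDF2L1 went the other way, from 40.5, 38 and 62 with DMSO to 79.4, 79.1 and 72.2 with IB (0.74 ± 0.19, adjusted p = 0.00315). MANF in JEKO1 was 477, 476 and 452 and 481, 510.3 and 590.1 (0.17 ± 0.08, adjusted p = 0.0852), which did not pass the test. MANF in JEKO1 was called on leaving out JEKO1 IB replicate A (0.0288), given as adjusted p.

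CRELD2 and HYOU1 fell with each of the 3 MAVER treatments. CRELD2, a stress-induced disulfide isomerase-like protein, stood at 571, 527 and 557 with DMSO, 427, 412 and 383 with IB, 341, 284 and 333 with KPT and 298, 319 and 343 with PU. The differences were -0.44 ± 0.08, -0.79 ± 0.08 and -0.78 ± 0.08 (adjusted p = 3.64e-05, 2.78e-11 and 3.01e-11), and no treated library reached the DMSO libraries. HYOU1 (GRP170), a large chaperone that exchanges the nucleotide of HSPA5, differed by -0.27 ± 0.05, -0.43 ± 0.05 and -0.49 ± 0.05 in the same order (adjusted p = 3.01e-05, 4.99e-10 and 1e-11). Both rose in JEKO1 with IB, HYOU1 from 1213 ± 12.9 to 1507 ± 43.6 (SD, n = 3; 0.31 ± 0.05, adjusted p = 2.45e-05) and CRELD2 from 96.5 ± 1.39 to 127 ± 9.33 (0.39 ± 0.12, adjusted p = 0.0147). The CRELD2 call in JEKO1 ended on DESeq2 (0.0583) or leaving out JEKO1 IB replicate B (0.0658), given as adjusted p.

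The lectin chaperones hold glycoproteins until they are folded, CALR free in the lumen and CANX in the membrane, and they parted with KPT. CALR stood at 10094, 10301 and 10272 with DMSO, 8533, 7975 and 8068 with IB, 9494, 9093 and 9607 with KPT and 5791, 5688 and 5805 with PU. Each treatment lay below DMSO in all libraries, by -0.32, -0.12 and -0.83 (adjusted p = 9.98e-09, 0.00624 and 1.77e-21). CANX rose with KPT, at 29435, 26843 and 28012 against 23949.6, 22614 and 24216 with DMSO (0.25 ± 0.04, adjusted p = 1.35e-06), and fell with IB (-0.19 ± 0.04, adjusted p = 0.000462) and PU (-0.17 ± 0.04, adjusted p = 0.000404). In JEKO1 CALR rose from 5400.0, 5434 and 5513 to 6528, 6488 and 6762 (0.27 ± 0.04, adjusted p = 6.04e-06). CANX there was 7427 ± 365 with DMSO and 7352 ± 321 with IB (SD, n = 3; -0.01 ± 0.04, adjusted p = 0.819).

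**Figure D2:**
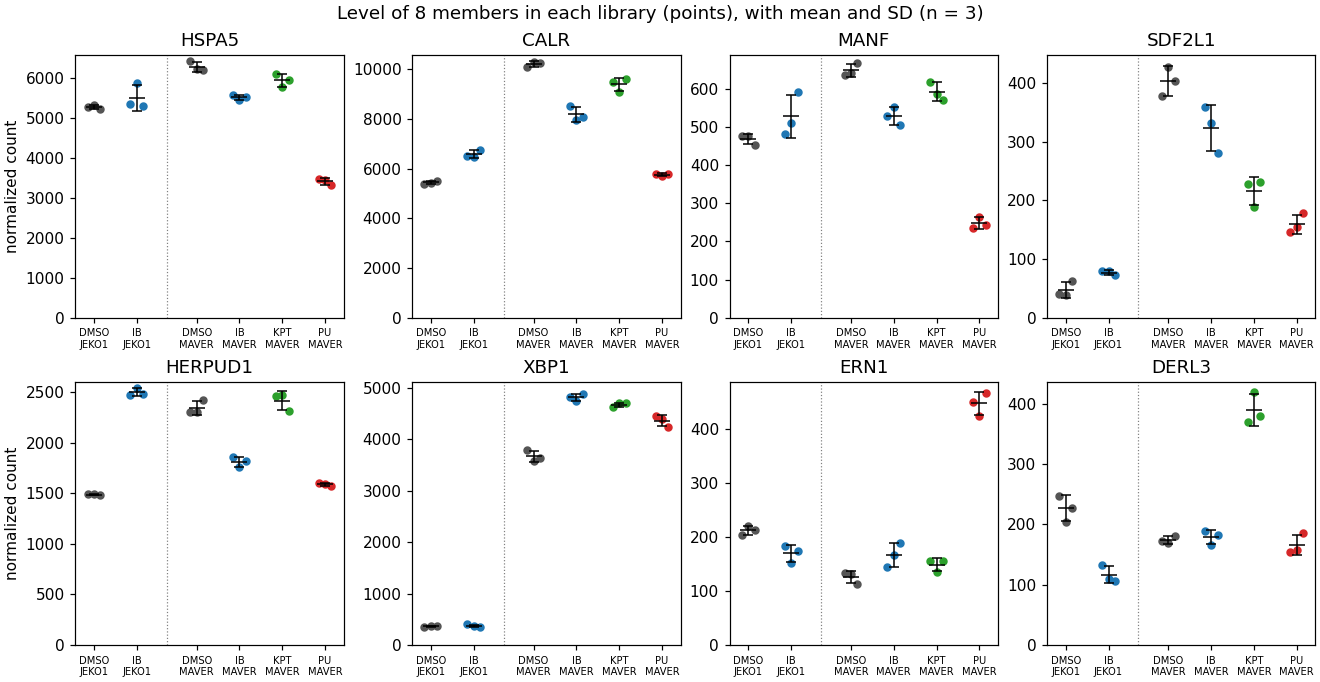
Normalized counts (linear axes from 0) of 8 members in each library (points: replicates A, B and C), with the mean and SD of each group (n = 3). The lines were normalized separately, so heights are to be compared within JEKO1 or within MAVER. With PU, HSPA5, CALR, MANF, SDF2L1 and HERPUD1 lie below all other MAVER groups while ERN1 lies above them; the 3 KPT libraries of DERL3 lie above all other MAVER libraries.

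The disulfide enzymes form and rearrange cysteine bridges; the PDI family acts on the client and the ERO1 oxidases recharge it. In MAVER with PU 6 of 7 fell and 1 rose (27.5% and 27.6% of all genes tested). PDIA4 went from 3716, 3738 and 3772 with DMSO to 2072, 2231 and 2267 with PU (-0.77 ± 0.04, adjusted p = 2.21e-18). PDIA3 (ERp57), which works with CALR and CANX, went from 2844, 2672 and 3003 to 1681, 1801 and 1607 (-0.74 ± 0.05, adjusted p = 7.04e-17). Neither gene's groups overlapped. PDIA6, P4HB (PDI itself) and ERO1L fell by smaller steps, -0.40 ± 0.04, -0.24 ± 0.04 and -0.36 ± 0.09. PDIA5 stood low at 50.7, 60 and 71.9 with DMSO, 50.2, 40.4 and 37.4 with KPT and 32.8, 30.6 and 30.7 with PU. It fell with PU (-0.92 ± 0.19, adjusted p = 7.49e-05) and with KPT (-0.50 ± 0.19, adjusted p = 0.024). The PDIA5 call with KPT ended on testing without a filter (0.0587), leaving out the RNA45S5-rich KPT libraries (0.0702), leaving out MAVER KPT replicate B (0.0601), leaving out MAVER KPT replicate C (0.0959), leaving out MAVER DMSO replicate B (0.0523) or leaving out MAVER DMSO replicate C (0.146), given as adjusted p.

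With IB in MAVER 4 of 7 fell (9.65% of all genes tested), and PDIA3 fell most, to 2175, 2132 and 2187 (-0.39 ± 0.05, adjusted p = 1.62e-08). PDIA6 (-0.26 ± 0.04), PDIA4 (-0.22 ± 0.04) and P4HB (-0.12 ± 0.04) fell too. The P4HB call with IB in MAVER ended on testing without a filter (0.0632), fitting no variance trend (0.115), leaving out MAVER IB replicate C (0.116), leaving out MAVER DMSO replicate A (0.0506) or leaving out MAVER DMSO replicate B (0.0941), given as adjusted p. ERO1L (-0.08 ± 0.09), ERO1LB (0.11 ± 0.25) and PDIA5 (0.02 ± 0.19) were not called. With KPT 5 fell (28.5% of all genes tested), namely PDIA4 (-0.24 ± 0.04), PDIA3 (-0.22 ± 0.05), PDIA6 (-0.20 ± 0.04), P4HB (-0.16 ± 0.04) and PDIA5. ERO1L (-0.10 ± 0.09) was not called.

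ERO1LB, the second ERO1 oxidase, went against its class. It stood at 17.5, 20 and 25.8 with DMSO, 43, 59.4 and 38.6 with KPT and 48.6, 31.7 and 28.9 with PU, from 19 to 56 recovered reads per library, so its error is wide. It rose with KPT (1.11 ± 0.25, adjusted p = 0.000195) and with PU (0.74 ± 0.25, adjusted p = 0.0103). The ERO1LB call with PU ended on leaving out MAVER PU replicate A (0.114) or leaving out MAVER DMSO replicate A (0.0561), given as adjusted p. In JEKO1 PDIA3 (0.32 ± 0.05), PDIA6 (0.26 ± 0.04) and P4HB (0.16 ± 0.05) rose with IB, and PDIA5 fell from 166, 159.8 and 149 to 117, 109 and 98.4 (-0.55 ± 0.12, adjusted p = 0.00074). The P4HB call in JEKO1 ended on fitting no variance trend (0.0969) or leaving out JEKO1 IB replicate A (0.0683), given as adjusted p. PDIA4 (0.08 ± 0.04), ERO1L (0.09 ± 0.10) and ERO1LB (-0.12 ± 0.24) were not called there.

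Among the sensors ERN1 had the largest rise of any member. It stood at 134, 132 and 113 with DMSO, 145, 168 and 189 with IB, 156, 135 and 156 with KPT and 451, 425 and 467 with PU. With PU the difference was 1.82 ± 0.11, adjusted p = 3.76e-18, a 3.53-fold rise on this scale, and the groups were far apart. The rise with IB was 0.40 ± 0.11, adjusted p = 0.00469. The ERN1 call with IB in MAVER ended on leaving out MAVER IB replicate C (0.0547) or leaving out MAVER DMSO replicate C (0.052), given as adjusted p. With KPT the libraries did not overlap DMSO but the test was not passed (0.24 ± 0.11, adjusted p = 0.0538). ERN1 with KPT was called on leaving out MAVER KPT replicate B (0.0245) or leaving out MAVER DMSO replicate A (0.0466), given as adjusted p. In JEKO1 ERN1 fell, from 204, 221 and 214 to 183, 153 and 175 (-0.33 ± 0.10, adjusted p = 0.013). The ERN1 call in JEKO1 ended on leaving out JEKO1 IB replicate B (0.0765) or leaving out JEKO1 DMSO replicate B (0.0524), given as adjusted p.

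ATF6 rose with PU, from 724, 671 and 696 to 905, 854 and 840.5 (0.31 ± 0.06, adjusted p = 1.56e-05), and was not called with IB in MAVER (0.02 ± 0.06), KPT (-0.11 ± 0.06) or in JEKO1 (0.04 ± 0.06). Its relative ATF6B was low, at 31.3 to 49.9 in MAVER with DMSO or PU, and was called in no MAVER comparison with DMSO (0.26 ± 0.20, 0.11 ± 0.20 and 0.25 ± 0.20 for IB, KPT and PU). EIF2AK3 (PERK) was likewise called in none of these (0.16 ± 0.07, 0.03 ± 0.07 and -0.02 ± 0.07). EIF2AK3 with IB in MAVER was called on leaving out MAVER IB replicate A (0.0341) or leaving out MAVER DMSO replicate C (0.02), given as adjusted p. It fell in JEKO1 from 599, 631 and 680.2 to 496, 433 and 502, without overlap (-0.42 ± 0.07, adjusted p = 9.16e-05).

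XBP1 rose with every MAVER treatment. It stood at 3790.3, 3577 and 3637 with DMSO, 4818, 4753 and 4880.0 with IB, 4630.3, 4701 and 4696 with KPT and 4448, 4389.8 and 4247 with PU. No treated library overlapped DMSO, and the differences were 0.39 ± 0.04, 0.35 ± 0.04 and 0.25 ± 0.04 (adjusted p = 1.3e-10, 6e-10 and 8.5e-07). XBP1 and the chaperones HSPA5, CALR and CRELD2, whose windows also hold ERSE, thus went opposite ways with PU and with IB. In JEKO1 XBP1 stood at 357, 367 and 378 with DMSO and 403, 365 and 354 with IB and was not called (0.02 ± 0.08, adjusted p = 0.825). Since XBP1 belongs to the plasma cell programme, the 6 plasma cell markers PRDM1, SDC1, TNFRSF17, IGJ, MZB1 and IRF4 were summed. Their sum was 11091 to 11552 normalized counts with DMSO in MAVER, 13904 to 14551 with IB, 13853 to 14002 with KPT and 13859.9 to 14173 with PU. The markers moved both ways, PRDM1 by -0.46, -0.28 and 0.15 and TNFRSF17 by 0.35, 1.50 and 0.70 with IB, KPT and PU. IGJ and IRF4 made up most of the sum. Their means with DMSO, IB, KPT and PU were 4601, 7128, 5210 and 5613 for IGJ and 4045, 4270, 4549 and 5807 for IRF4. In the same order MZB1 stood at 1814, 1999, 2370 and 1420 and SDC1 at 133, 92.0, 129 and 72.0, both lowest with PU. The part of these markers in the XBP1 result was not tested.

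**Figure D3:**
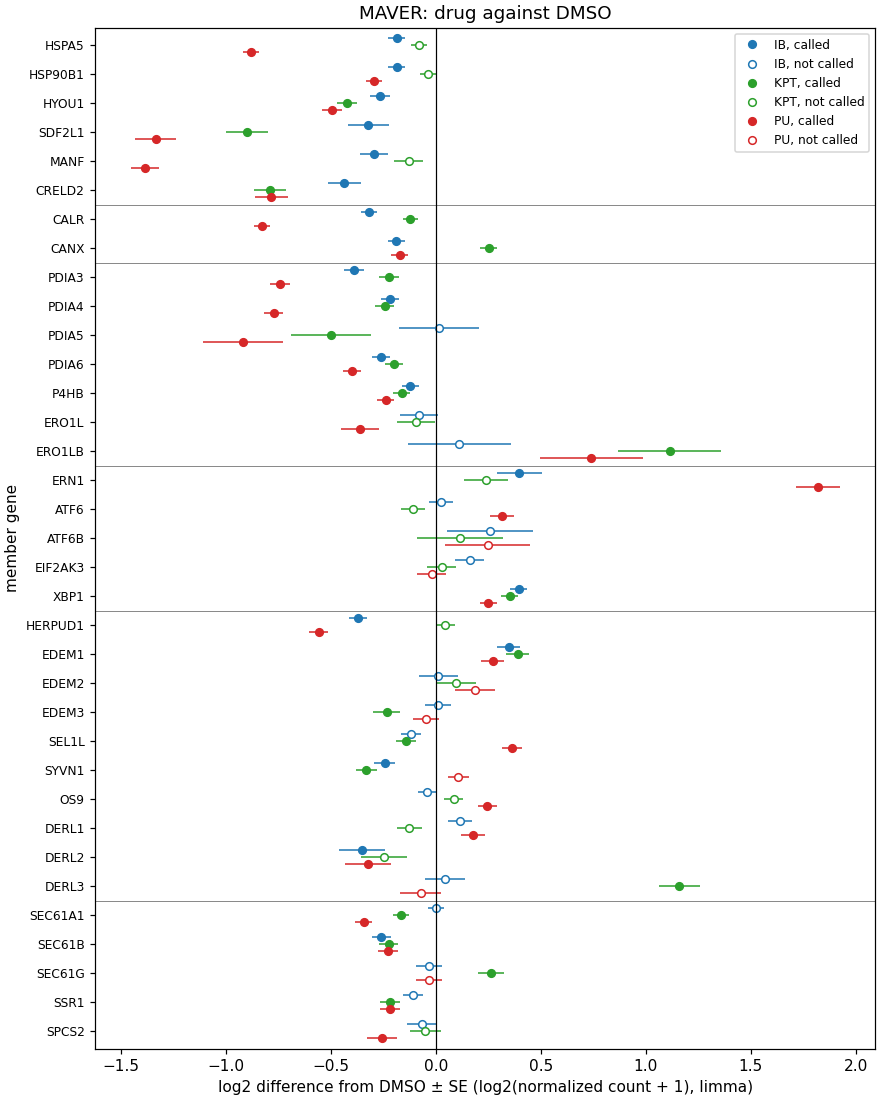
Log2 difference from DMSO (horizontal axis, limma on log2(normalized count + 1); bars are SE, n = 3 libraries a group) of the 35 members in MAVER with IB, KPT and PU. Filled points passed an adjusted p of 0.05 over all genes tested; the PU points of MANF and SDF2L1 lie furthest left, that of ERN1 furthest right, and the KPT points of DERL3 and ERO1LB lie above 1.

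ERAD genes moved both ways in each comparison. HERPUD1, a stress-induced membrane protein that assembles the ERAD complex, stood at 2302, 2300.4 and 2422 in MAVER with DMSO, 1858, 1754 and 1814 with IB and 1603, 1591 and 1573 with PU. It fell with IB (-0.37 ± 0.04, adjusted p = 1.48e-08) and PU (-0.56 ± 0.04, adjusted p = 7.33e-14), without overlap. With KPT it stood at 2462, 2472 and 2313, overlapping DMSO (0.04 ± 0.04, adjusted p = 0.411). In JEKO1 it rose from 1488, 1492 and 1481 to 2469.7, 2542 and 2484 (0.75 ± 0.04, adjusted p = 2.95e-11), the largest rise of a member in that line.

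The mannosidase-like proteins EDEM1, EDEM2 and EDEM3 and the lectin OS9 pick out glycoproteins for degradation. EDEM1 rose with each MAVER treatment, from 1253, 1317 and 1143 with DMSO to 1529.7, 1495 and 1695 with IB, 1705, 1557 and 1594 with KPT and 1539.7, 1425 and 1507 with PU (0.35 ± 0.05, 0.39 ± 0.05 and 0.27 ± 0.05; adjusted p = 4.03e-06, 1.02e-07 and 5.77e-05). In JEKO1 it fell, from 2469, 2499 and 2336 to 1965, 1815 and 1723 (-0.41 ± 0.05, adjusted p = 1.83e-06), and no comparison with DMSO had overlapping libraries. EDEM2 was called in none of the 4 comparisons with DMSO (-0.18 in JEKO1, and 0.01, 0.10 and 0.19 in MAVER with IB, KPT and PU). EDEM2 in JEKO1 was called on leaving out JEKO1 DMSO replicate C (-0.34, 0.0222), given as difference and adjusted p. That library is rich in RNA45S5. EDEM2 with PU was called on scaling to equal upper quartiles (0.0466), given as adjusted p. EDEM3 fell with KPT (-0.23 ± 0.06) and was not called in the other 3 comparisons with DMSO. The EDEM3 call with KPT ended on leaving out the RNA45S5-rich KPT libraries (0.223), given as adjusted p. OS9 rose with PU (0.24 ± 0.05, adjusted p = 1.4e-05) and fell in JEKO1 with IB (-0.30 ± 0.04, adjusted p = 8.46e-06).

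SEL1L and SYVN1 (HRD1) form the core ubiquitin ligase of ERAD. SEL1L stood at 1664, 1557 and 1615 with DMSO and 2140.5, 2116 and 1959 with PU (0.36 ± 0.05, adjusted p = 3.69e-08), without overlap. It fell with KPT (-0.14 ± 0.05) and in JEKO1 with IB (-0.18 ± 0.05). The SEL1L call with KPT ended on leaving out the RNA45S5-rich KPT libraries (0.0799), leaving out MAVER KPT replicate A (0.0649) or leaving out MAVER DMSO replicate A (0.0689), given as adjusted p. The SEL1L call in JEKO1 ended on fitting no variance trend (0.0569), given as adjusted p. SYVN1 fell in MAVER with IB (-0.24 ± 0.05, adjusted p = 0.000248) and KPT (-0.33 ± 0.05, adjusted p = 3.7e-07). With PU it differed by 0.11 ± 0.05, adjusted p = 0.0707. SYVN1 with PU was called on scaling to equal upper quartiles (0.0267), edgeR (0.0455), leaving out MAVER PU replicate B (0.0161) or leaving out MAVER DMSO replicate B (0.0324), given as adjusted p. In JEKO1 it rose by a small step (0.12 ± 0.05, adjusted p = 0.0426). The SYVN1 call in JEKO1 ended under 8 of 16 alternatives (adjusted p = 0.0556 to 0.153), among them leaving out JEKO1 IB replicate A (0.0704), JEKO1 IB replicate C (0.153), JEKO1 DMSO replicate B (0.152) or JEKO1 DMSO replicate C (0.104).

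The derlins DERL1, DERL2 and DERL3 line the exit channel. DERL3 stood at 172, 169 and 181 with DMSO, 189.8, 166 and 182 with IB, 369, 419 and 380.0 with KPT and 154, 158 and 185 with PU. Only the KPT libraries stood apart from DMSO (1.16 ± 0.10, adjusted p = 3.12e-13), a 2.23-fold rise. In JEKO1 DERL3 fell from 248, 205 and 227 to 133, 110.1 and 107 (-0.96 ± 0.11, adjusted p = 1.21e-06), the largest fall of a member there. DERL1 fell in JEKO1 (-0.29 ± 0.05, adjusted p = 9.5e-05) and rose with PU (0.18 ± 0.06, adjusted p = 0.00787). The DERL1 call with PU ended on leaving out MAVER PU replicate A (0.0571), given as adjusted p. DERL2 fell with IB in MAVER (-0.35 ± 0.11, adjusted p = 0.0188) and with PU (-0.32 ± 0.11, adjusted p = 0.0124). The DERL2 call with IB in MAVER ended on leaving out MAVER IB replicate A (0.0752), leaving out MAVER IB replicate B (0.0566), leaving out MAVER DMSO replicate A (0.0506) or leaving out MAVER DMSO replicate C (0.104), given as adjusted p. The DERL2 call with PU ended on leaving out MAVER PU replicate A (0.0779) or leaving out MAVER DMSO replicate C (0.066), given as adjusted p. With KPT DERL1 (-0.13 ± 0.06) and DERL2 (-0.25 ± 0.11) were not called. DERL1 with KPT was called on scaling to equal totals (0.0313), given as adjusted p. DERL2 with KPT was called on scaling to equal totals (0.0421), fitting no variance trend (0.0245), leaving out MAVER KPT replicate B (0.0328) or leaving out MAVER DMSO replicate B (0.0482), given as adjusted p.

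Of the translocation genes SEC61B, a small subunit of the channel, was called in all 4 comparisons with DMSO. It stood at 1486, 1445 and 1475 with DMSO and 2116, 2093 and 2279 with IB in JEKO1 (0.56 ± 0.05, adjusted p = 9.46e-09). In MAVER it fell, from 1929.7, 1933 and 2014 to 1693, 1614 and 1595 with IB (-0.26 ± 0.05), with like differences for KPT (-0.23 ± 0.05) and PU (-0.23 ± 0.05). SEC61A1, the pore subunit, fell with KPT (-0.17 ± 0.04) and PU (-0.34 ± 0.04) and rose in JEKO1 (0.13 ± 0.04). The SEC61A1 call in JEKO1 ended on scaling to equal upper quartiles (0.0558), fitting no variance trend (0.0761), leaving out JEKO1 IB replicate A (0.0519), leaving out JEKO1 IB replicate B (0.0725) or leaving out JEKO1 DMSO replicate A (0.0675), given as adjusted p. SEC61G, the third subunit, rose with KPT (0.26 ± 0.06, adjusted p = 0.000398) and was not called with IB or PU. SSR1, of the translocon-associated complex, fell with KPT (-0.22 ± 0.05) and PU (-0.22 ± 0.05). SPCS2, of the signal peptidase, fell with PU (-0.26 ± 0.07). In JEKO1 SEC61G (0.05 ± 0.09), SSR1 (-0.01 ± 0.05) and SPCS2 (0.23 ± 0.13) were not called.

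The IB effect was then compared between lines by subtracting the MAVER effect from the JEKO1 effect. It was higher in JEKO1 for 17 of 34 members (21.7% of all genes tested) and lower for 8 (19.6%), the second a share near the background. The median difference was 0.17 for the members and 0.00 for all genes. All 6 chaperones and both lectin chaperones were on the higher side. HERPUD1 differed most (1.12 ± 0.06, adjusted p = 1.96e-14), followed by SDF2L1 (1.06 ± 0.20, adjusted p = 0.000105) and CRELD2 (0.82 ± 0.12, adjusted p = 5.43e-06). DERL3 (-0.998 ± 0.15, adjusted p = 6.9e-06), EDEM1 (-0.76 ± 0.08, adjusted p = 2.51e-08) and ERN1 (-0.72 ± 0.16, adjusted p = 0.00062) were furthest on the lower side. Of the 12 members called in both lines 12 went opposite ways and 0 the same way. Over all 10632 genes tested in both lines, 1260 of 1415 called in both went opposite ways, so opposite directions were not particular to the members. The lines share no library. An exchange of the DMSO and IB labels in JEKO1 cannot be told apart from opposite responses of the lines.

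**Figure D4:**
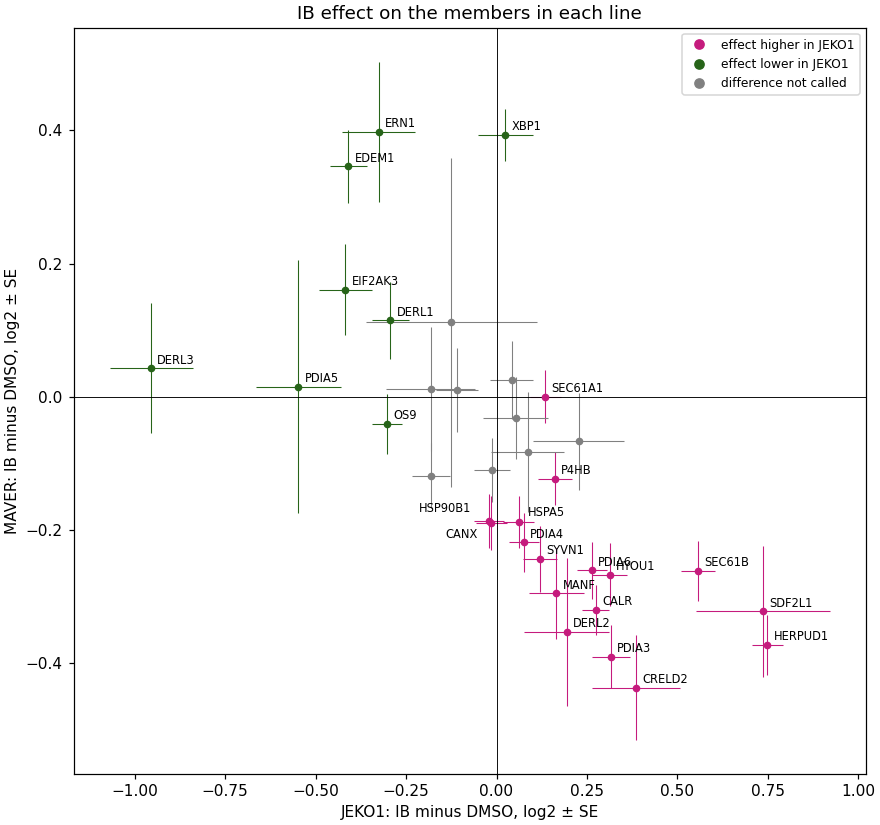
IB minus DMSO in JEKO1 (horizontal axis) and in MAVER (vertical axis), as log2 differences with SE bars (n = 3 libraries a group), for the 34 members tested in both lines. Coloured and named points are members whose effect differed between the lines at an adjusted p under 0.05; HERPUD1, SDF2L1, SEC61B and CRELD2 sit at the lower right and EDEM1 and ERN1 at the upper left.

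Differences between the MAVER treatments do not use the values of the DMSO libraries. Those libraries still entered the filter and the shared spread, and so the SE and adjusted p. PU against IB gave 18 members lower and 6 higher with PU (27.6% and 27.5% of all genes tested). HSPA5 (-0.69 ± 0.04, adjusted p = 1.06e-18), MANF (-1.09 ± 0.07, adjusted p = 3.77e-17) and CALR (-0.51 ± 0.04, adjusted p = 9.47e-15) were lower with PU than with IB, and ERN1 was higher (1.42 ± 0.11, adjusted p = 7.18e-15). PU against KPT gave 16 lower and 7 higher (28.6% and 28.3% of all genes). There MANF (-1.26 ± 0.07, adjusted p = 4.01e-19), DERL3 (-1.23 ± 0.10, adjusted p = 4.52e-14) and HSPA5 (-0.80 ± 0.04, adjusted p = 8.41e-21) were lower with PU, and ERN1 (1.58 ± 0.11, adjusted p = 2.75e-16) and SEL1L (0.50 ± 0.05, adjusted p = 1.25e-11) higher. CRELD2 (0.01 ± 0.08, adjusted p = 0.948) and HYOU1 (-0.07 ± 0.05, adjusted p = 0.223) were not called between PU and KPT. KPT against IB gave 11 higher and 9 lower with KPT (27.0% and 28.2% of all genes), shares near the background. Scaled to equal totals, 9 were higher and 11 lower. DERL3 (1.12 ± 0.10, adjusted p = 9.95e-13), CANX (0.44 ± 0.04, adjusted p = 4.45e-12) and HERPUD1 (0.42 ± 0.04, adjusted p = 2.64e-10) were higher with KPT, and SDF2L1 was lower (-0.58 ± 0.10, adjusted p = 4.14e-06). Leaving out KPT replicate B, the 1 KPT library not rich in RNA45S5, took the count lower with KPT from 9 to 5. Leaving out KPT replicate A or C, both rich in it, gave 8 and 7. DESeq2 and testing without a filter gave 6 each, so this count was unsteady in other ways too.

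By promoter, the 7 members with an exact ERSE had a median difference of -0.30 with PU, with 5 that fell and 2 that rose (XBP1 and ERO1LB). The 25 members with a window and no exact ERSE had a median of -0.23, with 14 that fell and 5 that rose. These 25 include HERPUD1, SDF2L1 and HYOU1, which hold ERSE-II and all fell with PU. The set is therefore not free of the motifs searched. Of all genes tested with PU 27.5% fell and 27.6% rose, with a median of 0.01. With KPT the medians were -0.04 and -0.14, and with IB in MAVER -0.19 and -0.08. With KPT 2 of the 7 fell and 3 rose, while 12 of the 25 fell and 2 rose (28.5% and 27.3% of all genes). With IB in MAVER 5 of the 7 fell and 1 rose, while 10 of the 25 fell and 2 rose (9.65% and 10.1%). In JEKO1 the medians were 0.02 and 0.08. There 0 of 7 fell and 2 rose, while 6 of 24 tested fell and 8 rose (20.2% and 21.9%). The ranges of the 2 sets overlapped in each comparison, from -0.88 to 0.74 and from -1.39 to 1.82 with PU. MANF, which fell most with PU, has none of the 3 exact motifs in its window.

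Another 96 genes of the endoplasmic reticulum were taken from lists made by role. In MAVER with PU 47 of 93 tested fell and 21 rose (27.5% and 27.6% of all genes tested). With KPT 42 fell and 25 rose (28.5% and 27.3%), and with IB 35 fell and 7 rose (9.65% and 10.1%). In these 3 comparisons the share that fell was above that of all genes and the share that rose was not. In JEKO1 18 of 92 rose and 20 fell (21.9% and 20.2%), both near the background. Their medians were -0.15, -0.09, -0.09 and 0.02. Subunits of the oligosaccharyltransferase, which adds the glycan, fell for 7 of 8 with PU, 6 with KPT and 6 with IB. The other 2 rose with KPT, and 0 rose with PU or IB. Of 19 co-chaperones and folding factors 11 fell and 2 rose with PU. DNAJB9, a co-chaperone that holds IRE1 in check, fell most, from 336, 312 and 309.6 to 145, 182 and 143 (-1.03 ± 0.09, adjusted p = 6.56e-13). Next were DNAJB11, a co-chaperone of HSPA5 (-0.67 ± 0.05), and the prolyl isomerase FKBP11 (-0.66 ± 0.11). Of 17 tested genes of ERAD extraction 8 rose and 7 fell with PU, with the largest rises in UBXN6 (0.65 ± 0.05) and FAM8A1 (0.58 ± 0.11). The sub-list counts with PU are to be read against the 27.5% of all genes that fell and 27.6% that rose. For KPT these shares were 28.5% and 27.3%, and for IB in MAVER 9.65% and 10.1%.

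PPP1R15A (GADD34), which reverses the translation block set by PERK, rose with PU, from 238, 252 and 248 to 440.3, 446 and 466 (0.87 ± 0.08, adjusted p = 4.41e-12), and with KPT, to 497, 551 and 499.6 (1.06 ± 0.08, adjusted p = 2.02e-14). BBC3 (PUMA), a death gene that this response and p53 can switch on, rose with KPT to 109, 120.0 and 113 from 33.2, 47.6 and 39.1 (1.51 ± 0.19, adjusted p = 9.97e-09), and FAM8A1 rose too (0.74 ± 0.11). The largest falls with KPT were DNAJC10 (-0.77 ± 0.05), UBE2G2 (-0.73 ± 0.05) and MLEC (-0.61 ± 0.04). With IB in MAVER BBC3 (0.57 ± 0.19) and UBE2J1 (0.39 ± 0.05) were among those that rose most, and DNAJB11 (-0.42 ± 0.05), ERP44 (-0.34 ± 0.05) and SEC24D (-0.33 ± 0.06) fell most. The BBC3 call with IB in MAVER ended under 8 of 17 alternatives (adjusted p = 0.0564 to 0.159), among them leaving out MAVER IB replicate A (0.0608), MAVER IB replicate B (0.079), MAVER IB replicate C (0.0564), MAVER DMSO replicate A (0.159) or MAVER DMSO replicate C (0.0743). In JEKO1 NUCB2 (1.11 ± 0.16), PPP1R15A (0.57 ± 0.13) and SEC24D (0.57 ± 0.08) rose most, and BBC3 (-0.90 ± 0.18) and MBTPS2 (-0.39 ± 0.07) were among those that fell most. PPP1R15A, BBC3 and MBTPS2 belong to a list of 12 signal genes. Of these 7 fell and 2 rose in JEKO1 (20.2% and 21.9% of all genes tested). In MAVER 2 fell and 5 rose with PU (27.5% and 27.6%), and 2 fell and 6 rose with KPT (28.5% and 27.3%). With IB there 1 fell and 2 rose (9.65% and 10.1%).

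Of 10 markers of T, myeloid, stromal and epithelial cells, COL1A1 and EPCAM in MAVER stood well above 0. The T cell genes CD3D, CD3E and CD2 summed to 2.29 to 9.42 normalized counts in JEKO1 with IB and to 0 in every MAVER library. The myeloid genes CD14, LYZ and CSF1R summed to at most 11.4 in any library. The 4 stromal and epithelial genes summed to 223 to 253 in MAVER with DMSO and to 944 to 997 with PU. COL1A1 stood at 61.7, 62.9 and 58.6 with DMSO and 652, 655 and 733 with PU, and EPCAM at 161, 189 and 177 and 291, 299 and 263, while COL3A1 was at 0 in both groups and KRT8 at no more than 1.91. The part of these 2 genes' source in the PU results was not tested.

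Of the 3 libraries behind the KPT results, 2 were rich in RNA45S5. Without them, leaving KPT replicate B alone and its spread taken from the other groups, 12 members fell and 6 rose with KPT, against 15 and 6. DERL3, EDEM1, SDF2L1 and CRELD2 stayed called with KPT under every alternative. ERO1LB did under each that tested it, but its mean was too low for the filter at 50. In JEKO1 without DMSO replicate C, 10 members rose and 9 fell, against 11 and 8.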

How the data were processed

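Per the labels' protocols, stranded TruSeq libraries of total RNA were read as single-end reads of 50 bp, aligned with STAR and quantified with Cufflinks, and DESeq2 compared drug with DMSO; the submitters' processing notes name the build hg19. The sources used here name no versions, annotation, counting program or strand setting. The deposited values are normalized counts, a signal per gene, in 1 table per line. Every deposited value was a whole multiple of 1 step per library (100% within 0.01 read), which gave back the reads. No 2 libraries of a group agreed within sampling noise (chi-square per degree of freedom 1.41 to 5.15). The test was limma 3.58.1 in R 4.3.3 (eBayes with trend) on log2(normalized count + 1). It took genes whose mean was 10 or more, with the 4 MAVER groups in 1 fit, and adjusted over all genes tested. The script was tested on simulated data. Alternatives were other pseudocounts, filters and scalings, no trend, the replicate letter as a block, the compared groups alone, left-out libraries, and edgeR 4.0.16 and DESeq2 1.42.0 on the recovered reads. Values per library are printed for HSPA5, HSP90B1, CALR, HERPUD1, XBP1 and the 3 members that rose most and the 3 that fell most per comparison; values for the other members were added where they show a group. Of the other genes, the 3 with the largest rise and fall and a mean of at least 50 are named, except for some results that are not reported here. Members and lists were chosen with earlier results of these data known. Promoter windows are from RefSeq (GRCh38.p14). Protein sequences, planned for a search of retention signals, were not analysed here. SPCS2, which has pseudogene copies, and genes that overlap others may share reads.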

Additional observations from a re-analysis of the deposited data

Results flagged for a closer look

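The IB effect differed between JEKO1 and MAVER, by the limma test of the difference itself (adjusted p under 0.05 over all genes tested), for 25 members. The values are log2 differences, JEKO1 effect minus MAVER effect. For the 17 on the higher side they were HERPUD1 (1.12), SDF2L1 (1.06), CRELD2 (0.82), SEC61B (0.82), PDIA3 (0.71), CALR (0.59), HYOU1 (0.58), DERL2 (0.55), PDIA6 (0.52), MANF (0.46), SYVN1 (0.36), PDIA4 (0.29), P4HB (0.28), HSPA5 (0.25), CANX (0.17), HSP90B1 (0.17) and SEC61A1 (0.13). For the 8 on the lower side they were DERL3 (-0.998), EDEM1 (-0.76), ERN1 (-0.72), EIF2AK3 (-0.58), PDIA5 (-0.56), DERL1 (-0.41), XBP1 (-0.37) and OS9 (-0.26). They hold for the JEKO1 libraries as labelled. The SEC61A1 call between lines ended under 13 of 22 alternatives (adjusted p = 0.0501 to 0.119), among them leaving out JEKO1 IB replicate A (0.0953), JEKO1 IB replicate B (0.107), JEKO1 DMSO replicate A (0.1), JEKO1 DMSO replicate B (0.0593), JEKO1 DMSO replicate C (0.0614), MAVER IB replicate B (0.066), MAVER IB replicate C (0.119), MAVER DMSO replicate A (0.0816) or MAVER DMSO replicate B (0.11). The PDIA5 call between lines ended under 7 of 21 alternatives (adjusted p = 0.0506 to 0.0944), among them leaving out JEKO1 IB replicate C (0.0725), JEKO1 DMSO replicate A (0.0674), JEKO1 DMSO replicate B (0.054), MAVER IB replicate B (0.0825) or MAVER DMSO replicate A (0.0944). The CANX call between lines ended on fitting no variance trend (0.1), leaving out JEKO1 IB replicate C (0.0539), leaving out JEKO1 DMSO replicate A (0.053), leaving out JEKO1 DMSO replicate B (0.0629), leaving out MAVER IB replicate B (0.0669) or leaving out MAVER DMSO replicate C (0.0549), given as adjusted p. The HSP90B1 call between lines ended on fitting no variance trend (0.0602), leaving out JEKO1 DMSO replicate B (0.0538) or leaving out MAVER IB replicate B (0.0533), given as adjusted p.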

How the results depend on the processing

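No member reversed its direction in a called result under any alternative. Of 179 calls of members over the 8 comparisons, 132 were made under every alternative run, 43 ended under at least 1 and 4 (ERO1LB and PDIA5) were untested with a mean of at least 50. Of 24 calls of other endoplasmic reticulum genes that the naming rule picked, 23 were, the exception being BBC3 with IB in MAVER. Counts of members that fell and rose ranged over the alternatives from 19 to 20 and 6 to 10 with PU, 12 to 18 and 5 to 7 with KPT, 14 to 16 and 2 to 4 with IB in MAVER, and 7 to 9 and 8 to 12 with IB in JEKO1. For the difference between lines, 14 to 17 members were higher and 7 to 8 lower. In the direct comparisons 12 to 20 were lower and 5 to 7 higher with PU than with IB, 11 to 19 and 6 to 7 with PU than with KPT, and 5 to 11 and 8 to 11 with KPT than with IB. The only count that moved by over 1.5 times was that of members lower with KPT than with IB, which ran from 5 to 8 with 1 replicate left out; the cause was not tested. Whether the letters pair the libraries was not settled. Deviations from group means were correlated between libraries of different groups. With the same letter, correlations were -0.0477 to 0.296 over 3 pairs in JEKO1 and -0.238 to 0.162 over 18 pairs in MAVER. With different letters they were -0.313 to 0.251 over 6 pairs and -0.185 to 0.241 over 36. So few pairs cannot decide it for JEKO1. There, with the letter as a block, 2819 of all genes tested rose and 2688 fell, against 2538 and 2341 without. With the letter as a replicate block 20 members fell and 8 rose with PU, and 12 rose in JEKO1, with MANF added (adjusted p = 0.0346 by limma). Members with few reads, ATF6B, ERO1LB, SDF2L1 in JEKO1 and PDIA5 in MAVER, carry the widest errors.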

Other observations

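Untreated levels of the lines can be set side by side only as RPM, recovered reads scaled to the library's total, since the authors normalized each line on its own, and they were not tested. With DMSO XBP1 was 35.4 to 37.4 RPM in JEKO1 and 379 to 401 in MAVER. SDF2L1, with 3.77 to 6.14 and 39.9 to 45.4, and CRELD2, with 9.41 to 9.64 and 55.9 to 60.4, were also lower in JEKO1. EDEM1 stood the other way, at 231 to 248 in JEKO1 and 121 to 139.7 in MAVER, as did PDIA5, at 14.7 to 16.4 and 5.35 to 7.61. HSPA5 was closer, at 516 to 526 and 655 to 678. These 6 members were chosen after their values were seen.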
